A study of Mus musculus with 48 samples.

Results

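The jejunal villi taken 9 days after Roux-en-Y gastric bypass (RYGB) or sham surgery are described here. They were chosen by the tissue and time in the sample labels and comprise 7 of the 48 libraries of the series, 3 from the RYGB group and 4 from the sham group. With RYGB, food leaves a small stomach pouch straight into the jejunum, and the secretions of the bypassed stomach and duodenum join it further down. The mice of both groups were male, of strain C57Bl6, raised on a high fat diet and described as diet-induced obese. After surgery both groups received a liquid elemental diet for 9 days. The labels also mention a transfer back to high fat diet, and they leave unclear which diet the mice ate at the end. All mice were fasted before they were killed at 10 am. The villi were scraped off after 5 min in ice-cold EDTA, and mRNA libraries were made with a stranded Illumina TruSeq kit. The labels do not say whether the jejunum of the RYGB mice came from the limb that carries food, the limb that carries bile or the common channel, nor whether the sham mice were matched for weight. They do not state that each library came from a different mouse, so the p values measure the spread between these samples.

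The jejunal villus is lined mainly by enterocytes, which digest and take up sugars, peptides and fat, repackage fat into chylomicrons and live for only a few days before they are shed at the tip. Between them sit goblet, tuft and enteroendocrine cells, and intraepithelial lymphocytes that patrol the epithelium. Enterocytes also make reactive oxygen species and antimicrobial proteins against luminal bacteria, and they make or import cholesterol according to the sterol level of the cell, which is sensed through the transcription factor SREBP2.

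Levels are given as CPM, in which counts are scaled to a common library total. They compare a gene between libraries but not genes with each other, because they are not divided by transcript length. The table listed 11021 genes, and the CPM of a library summed to between 998132 and 998532. In each library 13.5% to 17.6% of the CPM belonged to its 10 most abundant genes. The total number of reads is unknown, since the values were rounded to 0.1 CPM and none of the 50 steps of 0.1 CPM below 5 CPM was empty in any library. No counting interval can therefore be given, and values under about 1 CPM are imprecise. All 9 enterocyte markers were listed, and villin (Vil1) lay between 3120 and 4329 CPM in the 7 libraries. None of 10 gastric epithelium markers, 7 enteric neuron and glia markers and 5 red cell markers was listed. The ileal bile acid binding protein gene Fabp6 was not listed either, and the ileal bile acid transporter gene Slc10a2 did not pass 2.5 CPM.

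Some libraries stood apart. RYGB replicate 2 was sequenced on lane 2 and the other 6 libraries on lane 1, so a comparison without that library is a comparison within a lane. It sets RYGB replicates 1 and 3 against sham replicates 1 to 4, and a call can be lost there through fewer libraries alone. RYGB replicate 2 also had the highest levels of several inflammatory genes, given below. Sham replicate 2 was high in genes of the proximal small intestine. Enteropeptidase (Tmprss15), which activates pancreatic trypsin, was at 9.9, 278.5, 18.1 and 31.3 CPM in sham replicates 1 to 4, and the duodenal transcription factor gene Pdx1 was at 0.5, 7.4, 0.7 and 1.1 CPM. The RYGB libraries varied in these genes too. In RYGB replicates 1 to 3 Tmprss15 was at 3.3, 27.7 and 81.0 CPM and Pdx1 at 1.5, 3.4 and 4.1 CPM. Sham replicate 3 was high in the genes of antigen presentation by MHC class II, whose summed level was 4533 CPM against 186.7 to 617.0 CPM in the other 6 libraries. Of the 159 DEGs in the gene lists described below, 83 were also DEGs within lane 1, and the loss of a call there, or the number of alternatives in which a call was lost, is given beside the genes described.

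Promoters of 6 genes that carry the main results are shown first, because a reader may want to see the DNA next to which the changes were measured. They are RefSeq sequences of the genome build GRCm38.p6, from 250 bases before to 50 bases after a start site, written 5′ to 3′ on the strand of the gene. Duoxa2 (chr2:122298650-122298949, + strand) and Duox2 (chr2:122298178-122298477, - strand) encode an enzyme and its maturation factor. Their start sites lie 673 bases apart, and the genes are read away from each other. No motif was searched in these sequences, and they hold no capitals.
Duoxa2: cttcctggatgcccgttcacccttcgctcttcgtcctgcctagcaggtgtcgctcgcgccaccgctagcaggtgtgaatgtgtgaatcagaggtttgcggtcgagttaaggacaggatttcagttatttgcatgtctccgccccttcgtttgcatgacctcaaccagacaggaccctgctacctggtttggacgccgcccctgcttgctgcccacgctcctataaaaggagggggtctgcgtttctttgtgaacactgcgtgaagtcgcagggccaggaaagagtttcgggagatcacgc
Duox2: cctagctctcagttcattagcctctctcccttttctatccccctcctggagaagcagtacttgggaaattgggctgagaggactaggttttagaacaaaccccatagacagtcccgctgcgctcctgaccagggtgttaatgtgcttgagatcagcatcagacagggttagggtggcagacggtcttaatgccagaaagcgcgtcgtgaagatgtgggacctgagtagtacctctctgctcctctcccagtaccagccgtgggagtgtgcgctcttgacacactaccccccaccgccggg

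For the inhibitor of the transcription factor NF-kB (Nfkbia, chr12:55492598-55492897, - strand) the letters GGANTTTCC, a form of the NF-kB site, were searched on both strands and are in capitals, once on each strand. They occur in 412 of 32851 promoters (1.25%) and in 1.45% of 27025 genes. Of the 21 cytokine and feedback genes with a promoter sequence 7 held them (Cxcl1, Cxcl2, Cxcl10, Il6, Tnfaip2, Tnfaip3 and Nfkbia). Of the 7 that rose in the RYGB group and had a sequence, Tnfaip2 and Nfkbia did.
Nfkbia: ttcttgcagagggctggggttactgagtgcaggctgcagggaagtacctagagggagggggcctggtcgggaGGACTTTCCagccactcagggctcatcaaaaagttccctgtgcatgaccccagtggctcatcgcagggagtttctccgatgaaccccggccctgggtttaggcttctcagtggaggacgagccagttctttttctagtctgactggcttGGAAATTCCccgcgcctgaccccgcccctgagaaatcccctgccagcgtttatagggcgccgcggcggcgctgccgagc

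For an early enzyme of cholesterol synthesis (Hmgcs1, chr13:119690101-119690400, + strand) the letters TCACNCCAC, a form of the sterol regulatory element, were searched on both strands and are in capitals. They occur in 1.24% of the promoters and 1.44% of the genes. Among the 17 genes of cholesterol synthesis and its control with a sequence, Hmgcs1 alone held them.
Hmgcs1: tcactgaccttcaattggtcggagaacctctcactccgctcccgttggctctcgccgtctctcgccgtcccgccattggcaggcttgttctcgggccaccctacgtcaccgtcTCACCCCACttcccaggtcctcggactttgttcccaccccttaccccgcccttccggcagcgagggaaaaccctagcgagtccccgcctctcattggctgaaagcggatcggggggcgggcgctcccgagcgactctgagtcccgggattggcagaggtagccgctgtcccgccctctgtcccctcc

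For lactate dehydrogenase A (Ldha, chr7:46845554-46845853, + strand) and hexokinase 2 (Hk2, chr6:82774405-82774704, - strand) the letters ACGTG, the core of the site bound by hypoxia-inducible factors and many other factors, were searched on both strands and are in capitals. Matches on the 2 strands can overlap, and the 5 matches in Ldha and 2 in Hk2 are counted by strand. The letters occur in 19.6% of the promoters and 21.8% of the genes, in 13 of 18 glycolysis genes and in 5 of the 6 glycolysis genes that rose. The 3 motifs were chosen after the values were seen, and a match is a description of the sequence, not a site.
Ldha: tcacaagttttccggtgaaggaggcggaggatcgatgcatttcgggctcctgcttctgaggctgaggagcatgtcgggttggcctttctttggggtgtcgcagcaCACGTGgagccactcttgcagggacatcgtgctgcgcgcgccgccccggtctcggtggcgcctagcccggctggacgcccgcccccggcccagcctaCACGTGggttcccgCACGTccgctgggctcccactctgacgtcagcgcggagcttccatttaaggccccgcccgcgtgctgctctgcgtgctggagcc
Hk2: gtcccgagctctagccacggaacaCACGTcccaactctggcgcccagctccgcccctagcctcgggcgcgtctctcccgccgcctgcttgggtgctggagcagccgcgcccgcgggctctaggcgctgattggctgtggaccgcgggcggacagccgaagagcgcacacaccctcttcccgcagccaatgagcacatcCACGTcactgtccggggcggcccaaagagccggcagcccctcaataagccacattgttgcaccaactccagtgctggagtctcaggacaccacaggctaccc

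After RYGB the jejunal villi had more RNA of the hydrogen peroxide producing enzyme Duox2 and of antimicrobial proteins, of cholesterol synthesis, of glucose breakdown and of genes linked to epithelial repair. They had less RNA of single uptake genes, such as the receptor gene Cubn, the proline transporter gene Slc6a20a and the fatty acid receptor gene Cd36, of some genes of gluconeogenesis, water channels and drug metabolism, and of most intraepithelial lymphocyte markers. A differentially expressed gene (DEG) had an adjusted p value under 0.05 in limma and a fold change of at least 1.5. Of 10854 genes tested 1058 were DEGs (9.75%), 501 higher (4.62%) and 557 lower (5.13%) in the RYGB group. Counts of DEGs in the gene lists below are to be read beside these shares. Over all genes tested the median log2 fold change was -0.04. All RYGB libraries lay above all sham libraries for 1058 genes (9.75%) and below them for 1354 genes (12.5%). Log2 fold changes refer to log2(CPM + 1) and understate the change of genes of low CPM. They are given as RYGB minus sham with their standard error (3 RYGB and 4 sham libraries). Within lane 1, without RYGB replicate 2, 461 genes were DEGs, and 449 of these were among the 1058. The sign of the fold change was kept by 1055 of the 1058.

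**Figure D1:**
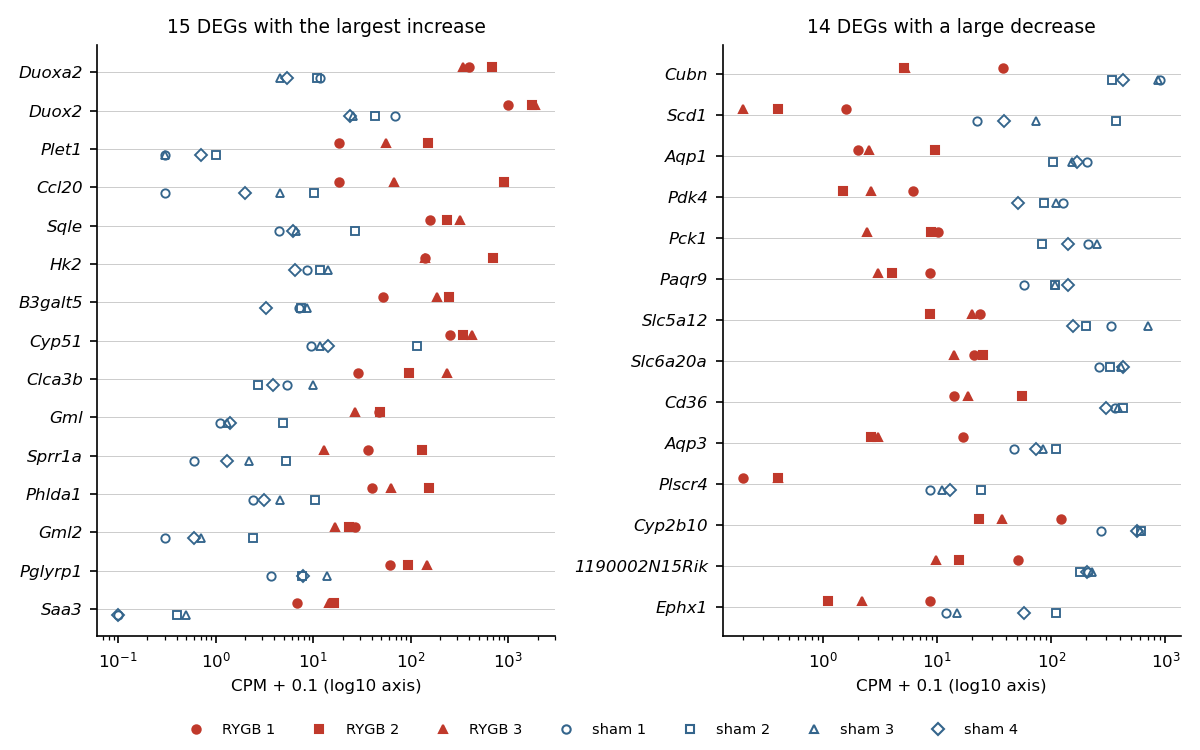
CPM per library on a logarithmic axis for the 15 DEGs with the largest rise and 14 of the 15 with the largest fall in the RYGB group, among DEGs whose groups did not overlap. Each point is 1 library of jejunal villi (3 RYGB, 4 sham), with 0.1 added to the value. A reader should see that the points of the groups are apart for every gene, and that single libraries reach far out, such as RYGB replicate 2 for Ccl20 (896.7 CPM) and sham replicate 2 for Scd1 (365.8 CPM).

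Among these 29 genes, 27 were DEGs in every alternative analysis that tested them. The exceptions were Ccl20 and Ephx1. The 29 genes were ranked by the size of their change and their separation by group follows from the way they were picked.

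Genes of epithelial defence rose. Of 17 tested genes of the DUOX enzymes and antimicrobial defence, 8 were higher and none was lower in the RYGB group, against 4.62% of all genes that were higher. The median log2 fold change of the list was 1.67. Without RYGB replicate 2, 7 were higher, among them a gene not called in the full comparison. Dual oxidase 2 (Duox2, chr2:122279247-122298449) releases hydrogen peroxide at the apical surface. It was at 1002, 1769 and 1862 CPM in RYGB replicates 1 to 3 and at 68.2, 42.6, 25.7 and 23.8 CPM in sham replicates 1 to 4. Each RYGB library exceeded each sham library more than 10-fold (log2 fold change 5.31 ± 0.36 (SE), adjusted p = 0.000157). Its maturation factor Duoxa2 (chr2:122298900-122302885), which brings the oxidase to the membrane, was at 393.5, 677.6 and 341.3 CPM after RYGB and at 11.6, 10.8, 4.5 and 5.3 CPM after sham surgery. This was the largest rise of all DEGs whose groups did not overlap (log2 fold change 5.73 ± 0.34, adjusted p = 7.03e-05). The divergent gene pair whose promoters are shown above rose together.

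The lectins Reg3b and Reg3g, which act on Gram-positive and other bacteria near the epithelium, were abundant in both groups. Reg3b was at 14804, 29660 and 26173 CPM in the RYGB group and at 5017, 4707, 11318 and 9465 CPM in the sham group (log2 fold change 1.67 ± 0.39, adjusted p = 0.0258). Reg3g rose by a like amount (1.78 ± 0.44, adjusted p = 0.0323). Both lost their call within lane 1 (adjusted p = 0.112 and 0.102), and reads of these close relatives may be split between them. The acute phase protein genes Saa1 and Saa3, also near-identical in part, rose as well. Saa1 was at 14.6, 38.7 and 50.9 CPM against 2.1, 3.9, 1.5 and 1.8 CPM (adjusted p = 0.0016). Saa3 was at 6.7, 16.1 and 14.4 CPM against 0.0, 0.3, 0.4 and 0.0 CPM, with 2 sham libraries listed at 0. Peptidoglycan recognition protein 1 (Pglyrp1), which binds bacterial cell walls and is outside the defence list, was at 61.6, 94.7 and 147.6 CPM against 3.6, 7.5, 13.7 and 7.7 CPM (log2 fold change 3.52 ± 0.39, adjusted p = 0.00104). Lipocalin 2 (Lcn2), which holds bacterial iron carriers, rose from between 0.1 and 0.2 CPM to between 2.1 and 5.3 CPM. The stress protein gene Sprr1a was at 36.7, 131.7 and 12.7 CPM against 0.5, 5.2, 2.1 and 1.2 CPM.

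Neutrophils also make several of these proteins. Of 13 neutrophil markers, lactoferrin (Ltf) alone was listed, and it was higher after RYGB (8.8 to 25.2 CPM against 1.7 to 6.0 CPM, adjusted p = 0.026, and 0.0652 within lane 1). The defining markers S100a8, S100a9, Ly6g and Cxcr2 were not listed. Markers of Paneth cells, the defensin-producing cells of the crypt base, rose beside these genes. Of 6 tested Paneth cell markers 3 were higher (50%), against 4.62% of all genes. Their median log2 fold change was 1.64. Lysozyme 1 (Lyz1) was at 41, 98 and 44 CPM against 6.8, 14.7, 22.7 and 11.5 CPM, and the defensin-activating protease Mmp7 was at 13.1, 29.6 and 15.1 CPM against 0.9, 2.4, 4.5 and 3.7 CPM. The summed level of the list was 116.3 to 225.7 CPM in the RYGB group and 33.4 to 68.9 CPM in the sham group. The part of such cells in the defence genes was not tested. In bulk villi, fewer or more cells of a type cannot be told apart from less or more RNA per cell, here or in the results that follow.

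Signal genes of inflammation were higher on average but uneven among the RYGB libraries. Of 18 tested cytokines, chemokines and their feedback genes, 8 were higher and 2 lower (median log2 fold change 1.25). Within lane 1, 4 were higher and 1 was lower. The chemokine Ccl20 attracts lymphocytes and dendritic cells to the epithelium. It was at 18.3, 896.7 and 67 CPM in the RYGB group and at 0.2, 10.1, 4.5 and 1.9 CPM in the sham group. RYGB replicate 2 was far above the other libraries, and the difference (4.79 ± 1.13, adjusted p = 0.0278) was no longer called without it (3.25, adjusted p = 0.0542). The alarmin Il33, released by damaged epithelium, was at 162.6, 633.0 and 143.6 CPM against 45.3, 55, 39.9 and 34.9 CPM and was called with and without that library (2.48 ± 0.44, adjusted p = 0.00821, and 1.80, adjusted p = 0.00404). Nfkbia was at 70.7, 387.5 and 239.2 CPM against 68.9, 47.6, 39.2 and 45.1 CPM (adjusted p = 0.0334), with RYGB replicate 1 barely above sham replicate 1, and was not called within lane 1 (adjusted p = 0.112).

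Nitric oxide synthase 2 (Nos2) did not pass the test although its mean was higher. It was at 45.2, 2589 and 381.7 CPM after RYGB and at 25.5, 70.9, 6.5 and 5.2 CPM after sham surgery (adjusted p = 0.0501), and the groups overlapped. Tnfaip3, a brake on NF-kB signalling, overlapped too, at 32.3, 824.9 and 198.5 CPM against 60.2, 35.3, 31.7 and 17.9 CPM (adjusted p = 0.117). Genes with steadier levels were Cxcl16, a chemokine for T cells, at 132.9, 210.1 and 145.3 CPM against 48.6, 61.2, 49.1 and 60.4 CPM (1.53 ± 0.20, adjusted p = 0.00203), and the feedback inhibitor Socs3, at 98.8, 84.6 and 74.2 CPM against 39.7, 41, 38.4 and 54.7 CPM (0.97 ± 0.19). Tnfaip2, Socs1 and the mucosal chemokine Ccl28 were the remaining members that rose, with log2 fold changes between 1.73 and 1.94, and Socs1 and Ccl28 lost their call within lane 1 (adjusted p = 0.0652 and 0.154). Those that fell were Ccl5, which lymphocytes themselves make, at 3.1, 4.1 and 6.5 CPM against 19, 12.5, 15 and 40.8 CPM (-1.93 ± 0.38, adjusted p = 0.0127), and Il15, which sustains intraepithelial lymphocytes, at 28.9, 14 and 12.4 CPM against 41.4, 26.4, 41.5 and 57.9 CPM (-1.18 ± 0.32, adjusted p = 0.0475). The groups overlapped for Il15, and it lost its call in 9 of 15 alternatives. Of 29 tested interferon-induced genes, Ifit2 and Oasl1 were higher and none was lower (median log2 fold change -0.01). These were 6.9% of the list, against 9.75% DEGs among all genes. Ifit2 lost its call in 1 of 15 alternatives.

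Genes linked to epithelial repair rose together in number. Of 21 tested EGF ligands and repair genes 14 were higher and none was lower, with a median log2 fold change of 1.25, and 7 were higher within lane 1. Plet1, a surface protein of healing epithelium, was at 18.5, 149.8 and 55.6 CPM in the RYGB group and under 1 CPM in all sham libraries (5.25 ± 0.55, adjusted p = 0.000886). The urokinase receptor gene Plaur and the hyaluronan receptor gene Cd44 are switched on in migrating epithelium. Plaur was at 8, 24.3 and 3.5 CPM against 0.4, 1.7, 0.9 and 0.5 CPM (2.48 ± 0.50, adjusted p = 0.0144). Cd44 was at 8.6, 12.5 and 13 CPM against 1.4, 3.8, 3.1 and 1.2 CPM (1.93 ± 0.31, adjusted p = 0.0053).

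The EGF receptor gene Egfr was at 65.5, 40.7 and 42.4 CPM against 25.6, 16.6, 24.7 and 14.5 CPM (1.25 ± 0.26, adjusted p = 0.0162). Of its ligands betacellulin (Btc) rose (1.45 ± 0.33, adjusted p = 0.0243, and 0.0989 within lane 1), whereas amphiregulin (Areg) overlapped between the groups at 30.3, 40.2 and 13 CPM against 5.3, 35.5, 9 and 16.5 CPM (adjusted p = 0.374). Tgfa, Hbegf and Ereg did not pass the test either. The calcium-binding proteins S100a6, S100a10 and S100a11 and their partner annexin A2 (Anxa2) all rose, with S100a11 at 29.5, 24.1 and 20.9 CPM against 2.6, 8.5, 4 and 4.3 CPM (2.22 ± 0.31, adjusted p = 0.00285). The remaining members that rose were Il33, the integrin genes Itga2 and Itgb6, the keratin gene Krt23 and the receptor gene Tnfrsf12a. Within lane 1 the calls of Anxa2, S100a6, S100a10, Itga2, Itgb6 and Tnfrsf12a were lost (adjusted p from 0.0513 to 0.104). In this list sham replicate 2 was the highest sham library for 9 of the 14 genes. Phlda1, a gene of growth factor signalling outside the list, was at 40.3, 154.7 and 63.1 CPM against 2.3, 10.3, 4.5 and 3 CPM (3.80 ± 0.50, adjusted p = 0.00205).

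Cell cycle genes did not rise, though only 17 of the 28 examined were listed. Of 16 tested cell cycle genes none was higher, and the helicase gene Mcm2 was lower (3.2, 0.8 and 2.4 CPM against 20.9, 19, 31 and 17.4 CPM, -2.93 ± 0.32, adjusted p = 0.000939). The summed level of the list was 50.5 to 97.7 CPM in the RYGB group and 83.1 to 101.8 CPM in the sham group. Of 9 tested crypt stem cell markers only Prom1 was called, higher after RYGB. The summed level of these markers was 116.1 to 240.8 CPM in the RYGB group and 78.9 to 118.3 CPM in the sham group. DEGs made up 6.25% of the cell cycle genes and 11.1% of the crypt markers, against 9.75% of all genes.

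The remaining genes among the 15 largest rises have varied functions. B3galt5, which extends the sugar chains of the glycocalyx, was at 51.7, 246.5 and 184.0 CPM against 7, 7.4, 8.5 and 3.2 CPM (4.22 ± 0.49, adjusted p = 0.00125). Clca3b, of the family of calcium-activated chloride channel regulators, was at 28.7, 96.5 and 233.2 CPM against 5.3, 2.6, 9.9 and 3.8 CPM (3.90 ± 0.61, adjusted p = 0.00448). The membrane-anchored proteins Gml and Gml2 rose side by side (3.86 ± 0.38 and 3.70 ± 0.34), and as close relatives they may share reads.

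Most of the cholesterol synthesis genes examined were higher after RYGB. Of 21 tested genes of cholesterol synthesis and SREBP2 targets 15 were higher and none was lower, 20 had a log2 fold change above 0, and the median was 2.11 against -0.04 over all genes. Within lane 1, 9 were higher. The summed level was 2344, 3260 and 3294 CPM in RYGB replicates 1 to 3 and 800.9, 1556, 751.7 and 774.3 CPM in sham replicates 1 to 4. RYGB replicate 3 was the highest RYGB library for 12 of the 15 genes called. Sham replicate 2 was the highest sham library for all 15 genes and still lay below every RYGB library for each of them. Without it 18 genes were called.

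**Figure D2:**
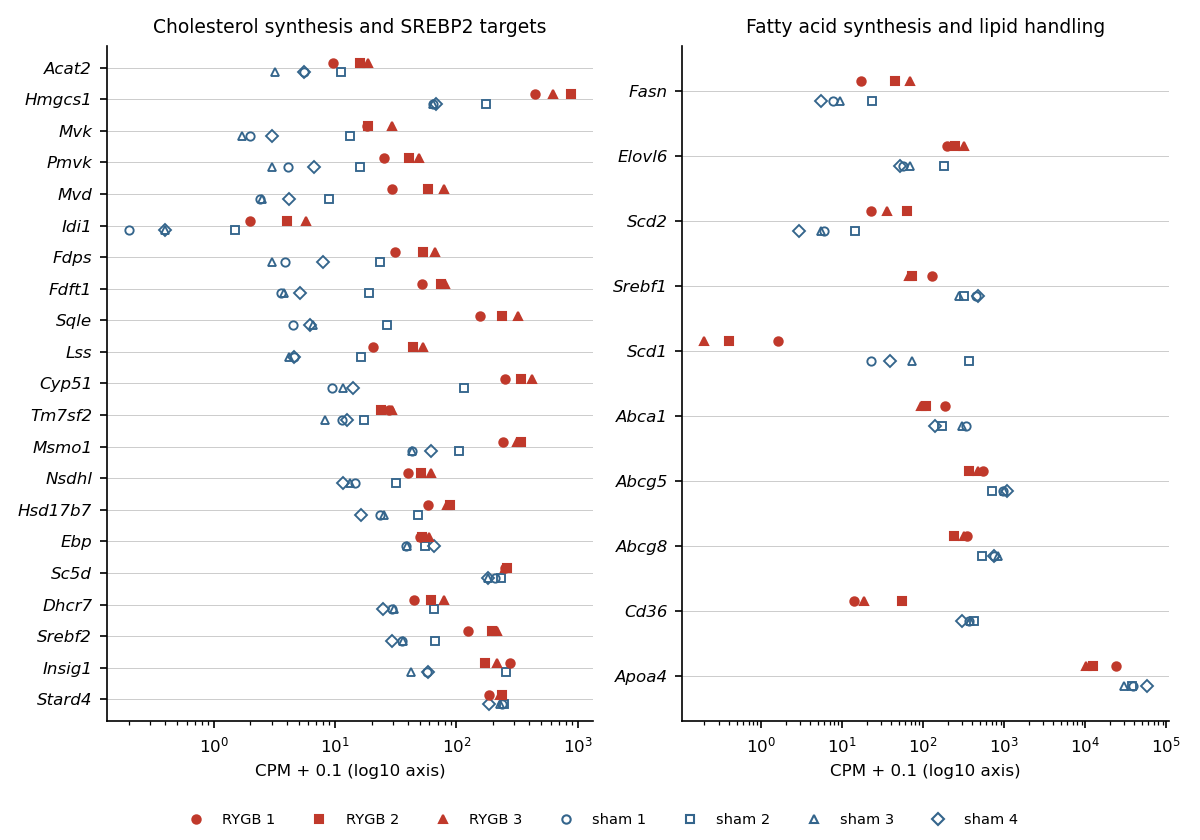
CPM per library on a logarithmic axis, in the left panel for the 21 genes of cholesterol synthesis and SREBP2 targets. The right panel shows 10 genes of fatty acid synthesis and lipid handling, 0.1 was added to each value, and each point is 1 library (3 RYGB, 4 sham). The 15 DEGs of the left panel have all RYGB points above all sham points, and sham replicate 2 is the sham point nearest to them.

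Near the start of the pathway stands Hmgcs1, which joins acetyl units. Hmgcs1, with the sterol-type motif shown above, was at 443.6, 881.9 and 630.8 CPM in the RYGB group and at 63.7, 176.2, 63.8 and 67.3 CPM in the sham group (2.90 ± 0.37, adjusted p = 0.00203). The mevalonate steps (Mvk, Pmvk, Mvd, Idi1 and Fdps) rose by between 1.65 and 3.42 on the log2 scale, Mvd the most (29.3, 57.9 and 78.3 CPM against 2.3, 8.9, 2.4 and 4.1 CPM). Squalene is made by Fdft1 (3.29 ± 0.47) and oxidised by squalene epoxidase (Sqle, chr15:59315077-59331192), the next controlled step. Sqle was at 156.7, 237.5 and 321.6 CPM against 4.4, 26.5, 6.5 and 6.1 CPM (4.61 ± 0.50, adjusted p = 0.000939). Lanosterol demethylase (Cyp51, chr5:4081145-4104746) was at 253.2, 342.8 and 423.9 CPM against 9.4, 115.2, 11.6 and 14 CPM (3.93 ± 0.70, adjusted p = 0.00832).

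Of the other enzymes after squalene, Lss, Msmo1, Nsdhl, Hsd17b7 and Tm7sf2 rose by between 1.11 and 2.38 on the log2 scale. Within lane 1 the calls of Mvk, Idi1, Fdps, Lss, Nsdhl and Hsd17b7 were lost (adjusted p from 0.0502 to 0.0751). Tm7sf2 kept its call there but lost it in 3 of 15 alternatives. Ebp, Sc5d and Dhcr7, which finish the sterol ring, did not pass the test, with log2 fold changes between 0.14 and 0.77. Nor did Acat2 (1.18, adjusted p = 0.0656) and the sterol carrier gene Stard4 (-0.05).

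The gene of the factor that drives the pathway, Srebf2, was at 125.2, 196.3 and 216.7 CPM against 35.4, 67.1, 36 and 29.3 CPM (2.11 ± 0.29, adjusted p = 0.00285). Insig1, which holds SREBP back when sterol is plentiful, overlapped through sham replicate 2, at 276.2, 173.0 and 214.3 CPM against 57.3, 257.3, 42.1 and 58.3 CPM (adjusted p = 0.109). Export of sterols to the lumen went the other way. Abcg8, which pairs with Abcg5 to form the sterol export pump, was at 349.7, 239.7 and 322.3 CPM against 756.9, 537.9, 849.2 and 751.8 CPM (-1.25 ± 0.21, adjusted p = 0.00642), and Abcg5 fell too (-0.99 ± 0.21, adjusted p = 0.0182, and 0.0898 within lane 1). The luminal sterol importer Npc1l1 and the exporter Abca1 did not pass the test (-0.55 ± 0.29, adjusted p = 0.29, and -0.84 ± 0.35, adjusted p = 0.165).

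Fatty acid synthesis split. The fatty acid synthase gene Fasn, the elongase gene Elovl6 and the desaturase gene Scd2 rose, and the desaturase gene Scd1 and the factor Srebf1 fell, among 13 tested genes of de novo lipogenesis (median log2 fold change 0.45). Scd1 (chr19:44394455-44407879) makes oleic acid and was at 1.5, 0.3 and 0.1 CPM after RYGB against 22.3, 365.8, 73 and 38.4 CPM after sham surgery. All RYGB libraries were below 2 CPM and all sham libraries above 20 CPM (-5.53 ± 0.77, adjusted p = 0.00285). Scd2, by contrast, was at 22.8, 63.1 and 36 CPM against 5.9, 14.2, 5.4 and 2.8 CPM (2.43 ± 0.46, adjusted p = 0.0104). Srebf1, the sister factor that drives fatty acid synthesis, was at 127.8, 72.7 and 65.9 CPM against 444.6, 314.2, 276.1 and 468.2 CPM (-2.10 ± 0.27, adjusted p = 0.00203), opposite to Srebf2. Fasn was at 17.2, 44.6 and 68.9 CPM against 7.5, 23.0, 9.3 and 5.4 CPM (adjusted p = 0.0483). The groups overlapped for Fasn, and it lost its call in 8 of 15 alternatives. Fasn and Elovl6 were not called within lane 1 (adjusted p = 0.152 and 0.0775).

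Some genes of glucose breakdown rose and some of glucose production fell. All 17 tested glycolysis genes had a log2 fold change above 0, 6 were higher and none was lower, and the median was 0.75. Within lane 1, 4 were higher. The summed level was 6527 to 6920 CPM in the RYGB group and 2943 to 4310 CPM in the sham group. Hexokinase 2 (Hk2), which traps glucose in the cell, was at 139.6, 690.2 and 139.4 CPM against 8.6, 11.6, 14 and 6.4 CPM, the highest in RYGB replicate 2 (4.47 ± 0.51, adjusted p = 0.00118, and 3.71, adjusted p = 0.000683, without it). Lactate dehydrogenase A (Ldha) was at 2846, 2071 and 2176 CPM against 818.4, 1311, 801.4 and 1187 CPM (1.22 ± 0.23, adjusted p = 0.0119). The glucose transporter of blood-facing membranes Slc2a1 was at 12.2, 24.7 and 18.1 CPM against 3.7, 4.8, 5.1 and 3.8 CPM (1.81 ± 0.25, adjusted p = 0.00285). Pfkp, Aldoa and Hk1 were the other genes called, with log2 fold changes between 0.83 and 1.31, and Aldoa and Hk1 lost their call within lane 1 (adjusted p = 0.0639 and 0.128).

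Both genes with ACGTG promoters shown above are among these. The hypoxia-inducible factor gene Hif1a was at 474.9, 578.0 and 213.4 CPM against 120.2, 255.4, 129.4 and 84.5 CPM (1.51 ± 0.40, adjusted p = 0.0437), the groups overlapped, and the call was lost in 9 of 15 alternatives. Carbonic anhydrase 9 (Car9), a known hypoxia gene, was at 44.5, 90.7 and 87.1 CPM against 12.8, 38.1, 16.7 and 20.9 CPM (1.74 ± 0.36, adjusted p = 0.017, and 0.0699 within lane 1).

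Of 7 gluconeogenesis genes 3 were lower and none was higher (median log2 fold change -0.79), and the same number was lower within lane 1. Phosphoenolpyruvate carboxykinase (Pck1, chr2:173153048-173159273), the controlled step, was at 10, 8.8 and 2.3 CPM in the RYGB group and at 208.1, 82.8, 251.5 and 139.5 CPM in the sham group (-4.48 ± 0.46, adjusted p = 0.000862). The last step, glucose-6-phosphatase, needs G6pc and its transporter Slc37a4. G6pc was at 141.6, 17.5 and 89.5 CPM against 340.9, 305.0, 284.7 and 223.6 CPM (-2.21 ± 0.56, adjusted p = 0.0361), with RYGB replicate 2 the lowest. It kept its call within lane 1 but lost it in 5 of 15 alternatives, among them each run without a sham library. Slc37a4 fell less but evenly, at 100.8, 85.5 and 88.6 CPM against 158.0, 174.6, 183.7 and 225.5 CPM (mean 2.02-fold lower, adjusted p = 0.00669).

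Genes of fatty acid burning fell in part. Of 25 tested genes of fatty acid oxidation and ketogenesis 4 were lower (16%) and none was higher, against 5.13% of all genes that were lower, and the median log2 fold change was -0.51. Within lane 1, 2 were lower, and 2 also without RYGB replicate 1. Pyruvate dehydrogenase kinase 4 (Pdk4), which spares glucose when fat is burned, was at 6, 1.4 and 2.5 CPM against 126.4, 86.9, 109.7 and 50.6 CPM (-4.52 ± 0.39, adjusted p = 0.000414). The receptor gene Ppara, which drives this programme, was at 8.6, 10.4 and 12.3 CPM against 29.6, 25.2, 22.2 and 14.2 CPM (-1.02 ± 0.26, adjusted p = 0.0359, and 0.102 within lane 1), and its target Vnn1 at 145.1, 102.3 and 146.8 CPM against 359.8, 271.4, 395.3 and 382.4 CPM (-1.42 ± 0.20, adjusted p = 0.00291). Carnitine acetyltransferase (Crat) fell by 0.80 on the log2 scale and lost its call in 10 of 15 alternatives (adjusted p = 0.14 within lane 1). The carnitine palmitoyltransferase gene Cpt1a, the entry to mitochondria, overlapped between the groups (72.3 to 199.4 CPM in sham, 74.2 to 115.2 CPM in RYGB, adjusted p = 0.572).

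Genes for the uptake of nutrients fell selectively. On the log2(CPM + 1) scale the largest fall was that of cubilin (Cubn, chr2:13276338-13491813), the apical receptor for vitamin B12 bound to intrinsic factor in the ileum and for albumin in the kidney. It was at 37.8, 5 and 5.1 CPM in RYGB replicates 1 to 3 and at 893.3, 342.2, 863.7 and 421.8 CPM in sham replicates 1 to 4. RYGB replicate 1 was the highest of its group and still far below every sham library (-5.69 ± 0.62, adjusted p = 0.00101). Its partner Amn, which anchors cubilin in the membrane, lay between 63.3 and 97.8 CPM in the RYGB group and between 82.3 and 215.0 CPM in the sham group and did not pass the test (adjusted p = 0.18). The folate transporter gene Slc46a1 fell, at 179.9, 135.6 and 119.8 CPM against 359.2, 455.6, 264.2 and 409.6 CPM (-1.35 ± 0.22, adjusted p = 0.00595). These were 2 of 9 tested genes of apical endocytosis and vitamin uptake, of which the exporter gene Abcc1 was higher (1.18 ± 0.28, adjusted p = 0.0277, and 0.0712 within lane 1) and the others were not called.

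For amino acids and peptides, 5 of 23 tested genes were lower and 1 was higher, with a median log2 fold change of -0.47. These were 26.1% of the list, against 9.75% DEGs among all genes. Within lane 1, 2 were lower. Slc6a20a, a proline transporter, was at 20.7, 25.1 and 13.9 CPM against 258.9, 327.6, 405.3 and 424.8 CPM, among the most even differences in the data (-4.10 ± 0.24, adjusted p = 7.03e-05). It has a close relative, Slc6a20b, with which reads may be shared. The broad neutral amino acid transporter Slc6a19 was at 635.9, 485.8 and 604.4 CPM against 1643, 978.0, 1745 and 1149 CPM (-1.23 ± 0.24, adjusted p = 0.012, and 0.061 within lane 1). The aromatic amino acid exporter Slc16a10 and the peptidases Mep1a and Ace were the other genes that fell, Mep1a the most (55.7, 54.9 and 66 CPM against 219.5, 141.8, 284.8 and 152.2 CPM, -1.69 ± 0.25). Slc16a10 and Ace lost their call within lane 1 (adjusted p = 0.0758 and 0.0513). The glutamate transporter gene Slc1a1 rose (15.7, 20.3 and 43.6 CPM against 5.5, 3.7, 12.8 and 6.7 CPM, 1.74 ± 0.41, adjusted p = 0.0275, and 0.0639 within lane 1). The peptide transporter Slc15a1, which takes up most dietary peptides, was at 639.1, 487.9 and 544.2 CPM against 1061, 592.8, 1031 and 878.9 CPM (adjusted p = 0.108).

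For sugars, lactase (Lct) was at 1448, 1499 and 1640 CPM against 5394, 3255, 5090 and 3436 CPM (-1.45 ± 0.23, adjusted p = 0.00525) and trehalase (Treh) fell by 0.89 on the log2 scale (adjusted p = 0.0749 within lane 1). The other 9 of 11 tested genes did not pass, and DEGs made up 18.2% of the list, against 9.75% of all genes. Sucrase-isomaltase (Sis) was at 15645, 16804 and 13443 CPM against 12209, 11828, 14982 and 8583 CPM (adjusted p = 0.418). The sodium-glucose transporter gene Slc5a1 had every RYGB library above every sham library, at 6417, 7196 and 8002 CPM against 4791, 4640, 4823 and 3959 CPM, with an adjusted p of 0.0703. The related lactate and short-chain acid carrier Slc5a12 fell, at 23.7, 8.6 and 19.9 CPM against 330.5, 201.6, 706.5 and 154.4 CPM (-4.10 ± 0.49, adjusted p = 0.00155).

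For fat, 4 of 28 tested genes were lower and 1 was higher, with a median log2 fold change of -0.40, and 2 were lower within lane 1. DEGs made up 17.9% of the list, against 9.75% of all genes. The fatty acid receptor gene Cd36 (chr5:17781690-17888801) was at 14, 55.3 and 18.4 CPM in the RYGB group and at 364.1, 426.9, 381.6 and 298.2 CPM in the sham group (-3.85 ± 0.38, adjusted p = 0.000693). The lipoprotein gene Apoa4 was at 23857, 12308 and 10108 CPM against 39146, 37520, 29793 and 57052 CPM (-1.47 ± 0.36, adjusted p = 0.0337, and 0.15 within lane 1). The sterol pump genes Abcg5 and Abcg8, described above, were the others that fell, and the mRNA editing enzyme gene Apobec1, which shortens apolipoprotein B, rose (1.06 ± 0.25, adjusted p = 0.0274, and 0.107 within lane 1). The chylomicron loading protein Mttp, apolipoprotein B itself (Apob) and the fatty acid binding protein genes Fabp1 and Fabp2 overlapped between the groups, with adjusted p from 0.166 to 0.881. As a measured fact beside these falls, the summed level of the 9 enterocyte markers was 46162 to 69117 CPM in the RYGB group and 75764 to 91455 CPM in the sham group. Of the 9, Apoa4 alone was called, and without it the summed levels overlapped (36054 to 45261 CPM against 34404 to 47344 CPM). The median log2 fold change of the 9 was 0.21, with 5 above 0.

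**Figure D3:**
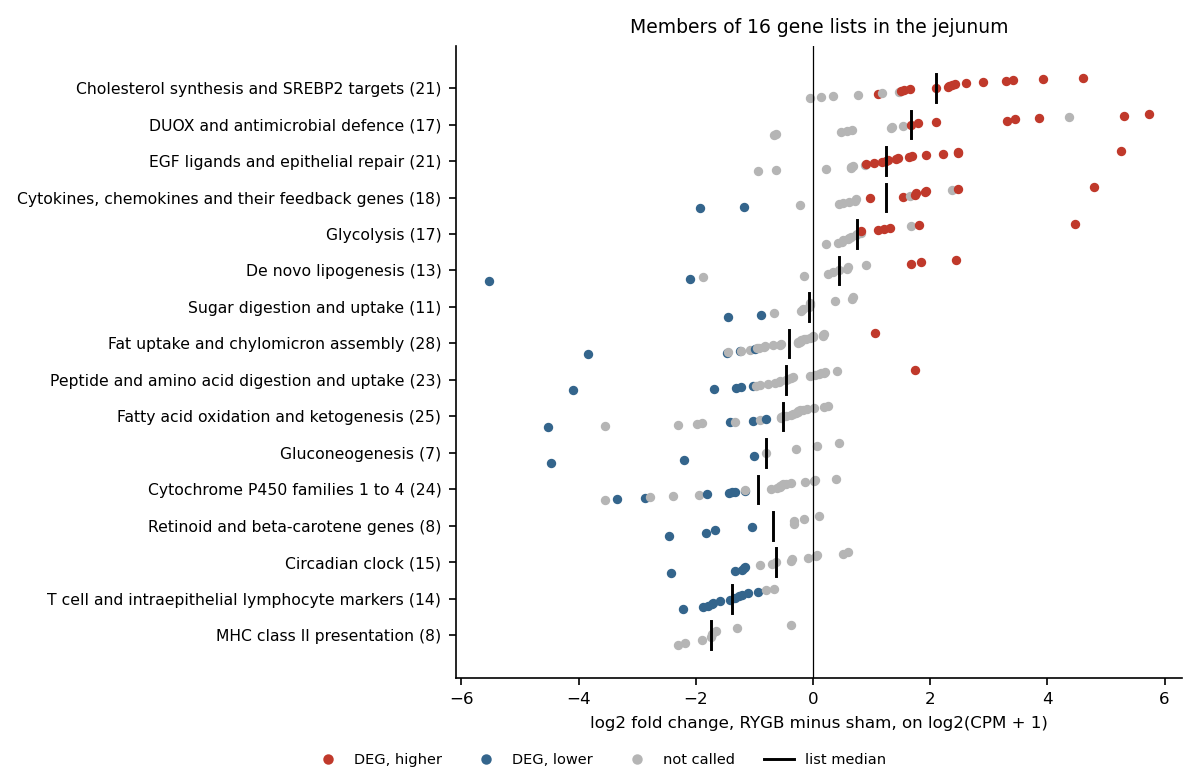
Log2 fold changes, RYGB minus sham, of the tested members of 16 gene lists, with each gene as a point (red for DEGs higher in RYGB, blue for DEGs lower, grey for genes not called) and the median of a list as a line. The medians of cholesterol synthesis (2.11), defence (1.67) and epithelial repair (1.25) lie above that of all genes (-0.04), and that of T cell and intraepithelial lymphocyte markers (-1.37) lies below it.

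Water and acid-base genes changed in single members rather than as a list. Of 31 tested genes for carbonic anhydrases, ions and water 2 were higher and 4 lower (median log2 fold change 0.04). These were 19.4% of the list, against 9.75% DEGs among all genes. Aquaporin 1 (Aqp1, chr6:55336432-55348555), a water channel, was at 1.9, 9.5 and 2.4 CPM against 205.2, 104.2, 150.8 and 166.4 CPM (-5.03 ± 0.41, adjusted p = 0.000414). Aquaporin 3 (Aqp3), which also passes glycerol, was at 16.8, 2.5 and 2.9 CPM against 47, 110.7, 85.2 and 73.5 CPM (-3.62 ± 0.52, adjusted p = 0.00324). Aquaporin 7 (Aqp7) was called as well (-2.52 ± 0.70, adjusted p = 0.0487), but RYGB replicate 1 lay at 67.0 CPM among the sham libraries (54.8 to 117.7 CPM) and the call was lost in 10 of 15 alternatives. Carbonic anhydrase 2 (Car2) fell more evenly, at 18.0, 23.1 and 19.2 CPM against 51.7, 54.0, 81.6 and 76.5 CPM (-1.64 ± 0.21, adjusted p = 0.00203). The potassium channel gene Kcnq1 rose (2.09 ± 0.49, adjusted p = 0.0264) and lost its call in 2 of 14 alternatives that tested it.

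Genes of drug and retinoid metabolism were lower where they were called. Of 24 tested cytochrome P450 genes of families 1 to 4, 7 were lower (29.2%) and none was higher, with a median log2 fold change of -0.94. Within lane 1, 4 were lower. Cyp2b10, a target of the xenobiotic receptor CAR, was at 120.6, 23.1 and 36.8 CPM against 274.1, 611.9, 597.6 and 568.7 CPM (-3.35 ± 0.49, adjusted p = 0.00363). Cyp3a11, the main drug-oxidising enzyme of its family in the mouse gut, was at 571.7, 84.8 and 110.8 CPM against 993.5, 2100, 766.3 and 1700 CPM (-2.86 ± 0.60, adjusted p = 0.017, and 0.0656 within lane 1). Its near relatives Cyp3a25 and Cyp3a44 fell too (Cyp3a44 not within lane 1, adjusted p = 0.0907), and reads may be shared among them. RYGB replicate 1 was the highest RYGB library for all 7. Epoxide hydrolase 1 (Ephx1) was at 8.6, 1.0 and 2.1 CPM against 11.9, 109.9, 14.8 and 57 CPM and lost its call within lane 1 (adjusted p = 0.0314 and 0.12). By contrast, of 33 tested genes of the NRF2 antioxidant programme 5 were higher and 4 lower (27.3% DEGs, against 9.75% of all genes). Glutathione peroxidase 2 (Gpx2), which removes peroxides in the epithelium, was at 431.8, 289.0 and 407.1 CPM against 29.8, 61.7, 72.6 and 60.9 CPM (2.77 ± 0.29, adjusted p = 0.000886). Glutathione reductase (Gsr) was at 242.5, 172.1 and 237.3 CPM against 34.2, 67.3, 54.7 and 47.2 CPM (2.10 ± 0.24, adjusted p = 0.00114). Catalase (Cat), the peroxisomal enzyme that breaks down hydrogen peroxide, fell at 247.4, 320.3 and 205.7 CPM against 561.5, 705.0, 459.5 and 592.1 CPM (-1.17 ± 0.21, adjusted p = 0.00809).

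Of 8 tested genes of vitamin A metabolism 4 were lower and none was higher (median log2 fold change -0.68), and 3 were lower within lane 1. Lrat, which stores retinol as an ester, was at 2.2, 7.4 and 5.6 CPM against 41.2, 25.3, 32.3 and 23.2 CPM (-2.45 ± 0.34, adjusted p = 0.00256). Dhrs3, Rdh7 and Aldh1a1, which interconvert retinol, retinal and retinoic acid, fell by between 1.05 and 1.82 on the log2 scale, Aldh1a1 not within lane 1 (adjusted p = 0.114). The pyrimidine nucleoside transporter Slc28a1 was at 28.5, 13.9 and 13.3 CPM against 127.6, 112.8, 184.8 and 130.7 CPM (-2.90 ± 0.28, adjusted p = 0.000609). Of the genes without a list, Paqr9, an adipokine receptor family member, was at 8.5, 3.9 and 2.9 CPM against 58, 107.6, 107.8 and 140.0 CPM (-4.14 ± 0.35, adjusted p = 0.000414). The lipid scramblase family gene Plscr4 fell from between 8.5 and 24.2 CPM to 0.3 CPM or less. 1190002N15Rik fell as well (-3.29 ± 0.43, adjusted p = 0.00208).

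Clock output genes and a few core genes fell. Of 15 tested circadian genes 5 were lower (33.3%) and none was higher (median log2 fold change -0.63). Within lane 1, 3 were lower, namely Tef, Cry2 and a gene not called in the full comparison. The output factors Dbp, Tef and Hlf were lower, Hlf not within lane 1 (adjusted p = 0.0973), with Dbp at 10.6, 4.5 and 1.1 CPM against 25.4, 30.4, 15.1 and 42 CPM (-2.43 ± 0.52, adjusted p = 0.0183, and 0.0548 within lane 1). Cry2, a repressor of the clock, was at 4.4, 3.7 and 4.7 CPM against 16.1, 8.4, 13.3 and 12.2 CPM (-1.33 ± 0.24, adjusted p = 0.00821). Nr1d1 was called in the full comparison (adjusted p = 0.043) but lost its call within lane 1 (adjusted p = 0.077) and in 9 of 15 alternatives in all. The activator Arntl was at 24.4, 41.4 and 53.3 CPM against 40.3, 20.1, 24 and 19.3 CPM (adjusted p = 0.287).

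Markers of T cells and intraepithelial lymphocytes fell nearly throughout. Of 14 tested 12 were lower (85.7%) and none was higher, with a median log2 fold change of -1.37, and 7 were lower within lane 1. The summed level was 34.5, 54.6 and 61.6 CPM in RYGB replicates 1 to 3 and 186.6, 141.6, 172.7 and 341.7 CPM in sham replicates 1 to 4. Sham replicate 4 was the highest library for all 12. The T cell receptor chain gene Cd3e was at 1.6, 1.9 and 2.9 CPM against 6.8, 8, 7.7 and 10.9 CPM (-1.58 ± 0.23, adjusted p = 0.0037). Cd8a, the coreceptor of most intraepithelial T cells, was at 2.1, 3.6 and 5.7 CPM against 16.4, 13.3, 13.5 and 21.2 CPM (-1.88 ± 0.29, adjusted p = 0.00411). The granule protease Gzma was at 14.1, 20.9 and 16.4 CPM against 77.1, 51.7, 67.5 and 169.2 CPM (-2.22 ± 0.35, adjusted p = 0.00482). The integrin chain Itgae, which binds lymphocytes to E-cadherin of the epithelium, was at 2.3, 3.9 and 6.5 CPM against 11.2, 10.6, 13 and 14.7 CPM (-1.42 ± 0.28, adjusted p = 0.0133). Cd3d, Cd3g, Cd7, Gzmb, Nkg7, Klrd1, Cd160 and Lck fell by between 0.95 and 1.79 on the log2 scale. Within lane 1 the calls of Cd3d, Nkg7, Klrd1, Cd160 and Lck were lost (adjusted p from 0.0566 to 0.141). Gzmb kept its call there but lost it in 4 of 15 alternatives. Trac and Xcl1 did not pass the test (adjusted p = 0.126 and 0.0529).

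Few markers of other immune cells were listed or called. Of 4 tested B cell and plasma cell markers only Ighm was lower (adjusted p = 0.0688 within lane 1), and the summed level spread from 5.6 to 98.3 CPM in the RYGB group and from 5.5 to 64.9 CPM in the sham group. None of the 8 genes of MHC class II presentation was called, at a median log2 fold change of -1.74. That median rests on sham replicate 3. Cd74, the chaperone of these molecules, was at 13.1, 43.7 and 24 CPM against 15.2, 15.7, 1923 and 95.7 CPM, and the antigen-presenting chain H2-Aa at 5, 13.4 and 7.2 CPM against 7.3, 8.1, 926.3 and 37.3 CPM. Without sham replicate 3 the median was -0.64.

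**Figure D4:**
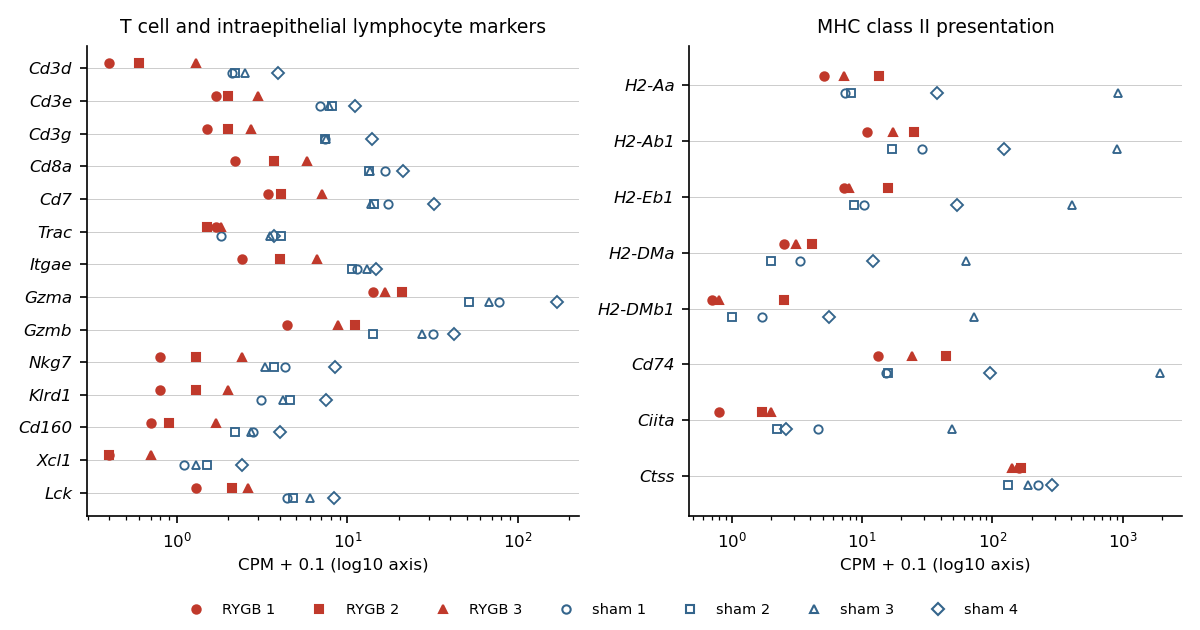
CPM per library on a logarithmic axis for T cell and intraepithelial lymphocyte markers and for genes of MHC class II presentation, with 0.1 added to each value and 1 point per library (3 RYGB, 4 sham). All RYGB points lie below all sham points for the 12 lymphocyte DEGs, whereas sham replicate 3 alone is high for Cd74 (1923 CPM) and H2-Aa (926.3 CPM).

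Of the tested markers of secretory and sensory cells of the epithelium, 13.3% (goblet), 15.4% (tuft) and 15.8% (enteroendocrine) were DEGs, against 9.75% of all genes. Of 15 tested goblet cell markers Clca1 and Spink4 were higher and none was lower, and the mucin gene Muc2 was not called. Both lost their call within lane 1 (Clca1 adjusted p = 0.162, Spink4 0.0756). Of 13 tested tuft cell markers, Trpm5, the taste-type channel of tuft cells, was at 238.9, 75.3 and 167.7 CPM against 24.9, 30.7, 18.3 and 20.1 CPM (2.60 ± 0.35, adjusted p = 0.00243), whereas Ltc4s, which makes leukotriene, fell (-1.70 ± 0.39, adjusted p = 0.0242, and 0.0891 within lane 1). Dclk1 and Pou2f3, which define tuft cells, did not pass the test. Of the 13 tuft cell markers 12 had a log2 fold change above 0, with a median of 0.19. Their summed level, which includes Trpm5, was 136.9 to 318.8 CPM in the RYGB group and 91.8 to 136.6 CPM in the sham group. Of 19 tested enteroendocrine markers and hormones, the gene of the inhibitory hormone somatostatin (Sst) fell, at 9.2, 5.5 and 12 CPM against 22.7, 21.9, 22.5 and 43.5 CPM (-1.53 ± 0.31, adjusted p = 0.0146, and 0.0556 within lane 1). The tachykinin gene Tac1 and the hormone-processing enzyme gene Cpe rose, Tac1 not within lane 1 (adjusted p = 0.0865). Cpe kept its call there but lost it in 7 of 15 alternatives. The precursor gene of GLP-1 (Gcg) was at 5.7, 5 and 10 CPM against 2.8, 7.8, 6.7 and 7.3 CPM (adjusted p = 0.817), and neither Gip nor Cck passed the test (adjusted p = 0.217 and 0.91).

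Of the genes that give the gut its regional identity 5.26% were DEGs, against 9.75% of all genes. Of 19 tested regulators Hnf4g alone was called, lower by 0.78 on the log2 scale (adjusted p = 0.179 within lane 1). Its sister gene Hnf4a was at 1187, 1133 and 1313 CPM against 911.5, 843.7, 782.6 and 537.5 CPM (adjusted p = 0.0712). Of 7 tested ileal and bile acid genes, the basolateral bile acid exporter genes Slc51b and Abcc3 were higher, Slc51b at 191.7, 150.2 and 201.9 CPM against 82.9, 126.5, 76.9 and 105.6 CPM (0.90 ± 0.21, adjusted p = 0.0266), and Abcc3 lost its call within lane 1 (adjusted p = 0.0729). Slc51b kept its call there but lost it in 4 of 15 alternatives. Nr0b2, the repressor induced by the bile acid receptor, was lower, at 1.4, 0.0 and 0.2 CPM against 2.6, 10.1, 4.2 and 9 CPM (-2.25 ± 0.43, adjusted p = 0.0122, and 0.0529 within lane 1). Among 22 tested genes of the endoplasmic reticulum Hspa5, Xbp1 and Calr were higher and none was lower (13.6% DEGs, against 9.75% of all genes). All 3 lost their call within lane 1 (adjusted p = 0.0878, 0.0898 and 0.0811), and Calr in 10 of 15 alternatives. Of 14 tested genes of the integrated stress response Asns, which makes asparagine, and the arginine transporter gene Slc7a1 were higher (14.3% DEGs). Asns was at 12.7, 25.8 and 40.2 CPM against 4.3, 4.1, 4.8 and 6.7 CPM (2.07 ± 0.34, adjusted p = 0.00594), and Slc7a1 lost its call within lane 1 (adjusted p = 0.0961).

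The neighbouring segments were set beside the jejunum to see where it differed. Their tables were normalized separately and the differences between segments were not tested. The labels do not say whether the libraries of different segments came from the same mice. In the duodenum, which food bypasses after RYGB, 1 of 10850 genes was a DEG (0.00922%), namely Ephx1, with 3 RYGB and 4 sham libraries, while 2040 genes had an unadjusted p under 0.05. In the ileum 650 of 10735 genes were DEGs (6.05%), with 5 libraries in each group. The ileal RYGB libraries were all on lane 1 and the ileal sham libraries on lanes 2 and 3, and for every ileal value below a lane difference and a difference by operation cannot be told apart. Of the 15 genes with the largest rise in the jejunum, 13 were tested in each of the other segments. Cyp51 alone was called in the ileum and none in the duodenum. Of the 14 with a large fall named above, 7 were lower and none was higher in the ileum.

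The cholesterol genes had the opposite sign in the duodenum. Of the 15 that rose in the jejunum, 14 were tested in the ileum, all with a log2 fold change above 0 and 2 of them called. In the duodenum 14 were tested, all below 0, with a median of -1.10 and none called. Sqle in the duodenum lay between 5.2 and 17.1 CPM in the RYGB group and between 4.4 and 116.5 CPM in the sham group (adjusted p = 0.397). Lymphocyte markers were lower in the ileal RYGB libraries, which were on a lane that held no ileal sham library. Of the 12 jejunal DEGs 11 were tested in the ileum and all 11 were lower, with a median log2 fold change of -1.61. In the duodenum all 12 had a log2 fold change above 0, with a median of 1.29, and none was called. Cd8a there was at 17.5 to 37.8 CPM after RYGB and at 4.8 to 20.2 CPM after sham surgery (adjusted p = 0.151).

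In the ileum, its usual site, Cubn lay between 806.4 and 1687 CPM in the sham group and lower in the RYGB group (353.8 to 630.8 CPM, log2 fold change -1.16, adjusted p = 0.0106). In the duodenum it was at 82.1 to 201.1 CPM after RYGB and spread from 6.1 to 366.8 CPM in the sham group (adjusted p = 0.489). Duox2 in the ileum lay between 69.9 and 4258 CPM in the RYGB group (median 1359 CPM) and between 84.0 and 604.1 CPM in the sham group, and was not called (adjusted p = 0.212).

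**Figure D5:**
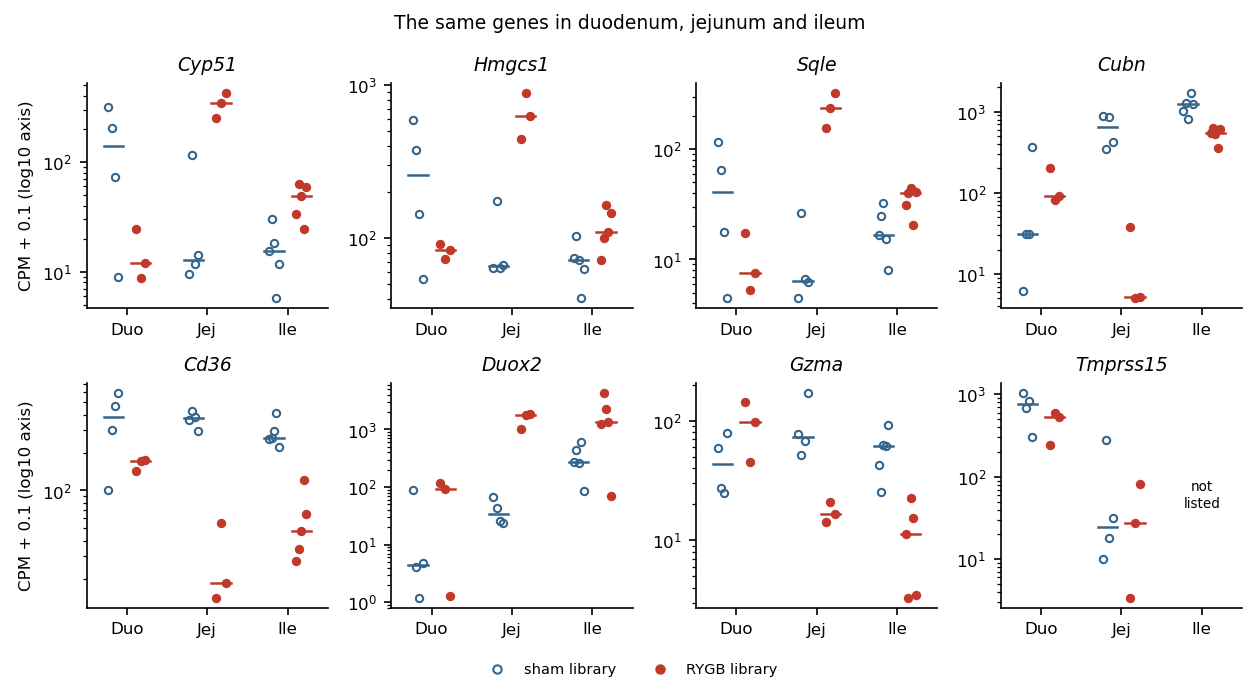
CPM per library on a logarithmic axis, with 0.1 added, in duodenum, jejunum and ileum for 8 genes, with RYGB and sham libraries as separate points (3 and 4 in duodenum and jejunum, 5 and 5 in ileum) and the median of a group as a short line. The 3 tables were normalized separately. In the jejunum Cubn lies between 5.0 and 37.8 CPM after RYGB and between 342.2 and 893.3 CPM after sham surgery, whereas the groups overlap in the duodenum.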

How the data were processed

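RNA of jejunal villi from 3 RYGB and 4 sham libraries was analysed. The authors deposited CPM values rounded to 0.1, 1 table per tissue. That the unit is CPM was settled from the column sums, since 359 lines that repeat a gene hold equal values and were used once. The submitters' processing notes name HTSeq and GRCm38. The aligner and the annotation are not given in the sources used here. Coordinates are those of GENCODE M21 on GRCm38.

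RYGB and sham were compared on log2(CPM + 1), for genes averaging 1 CPM or more over the 7 libraries, with limma 3.58.1 (empirical Bayes with trend, R 4.3.3), two-sided, with Benjamini-Hochberg adjustment over all genes tested. No count model was fitted. Tables and figures were made with Python 3.11.15, pandas 2.3.3, numpy 2.4.6 and matplotlib 3.10.9. The 52 gene lists and the genes to examine were chosen with earlier results of these data known. Genes named were the 15 DEGs with the largest rise and the 15 with the largest fall whose groups did not overlap, and members of the lists. A few genes entered the fit but are not reported here, by name or in the counts of a list. Alternatives were another pseudocount, other minimum levels, median-ratio scaling, lane as a covariate, no trend, array weights, a replicate block and leaving out each library. Lane as a covariate and leaving out RYGB replicate 2, the only library on lane 2, are nearly the same fit. They are not separate evidence where alternatives are counted. Samples were grouped by their labels. Liver, muscle and fat were not used. The fit was tested on simulated data.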

Additional observations from a re-analysis of the deposited data

Results flagged for a closer look

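Libraries that lay far from the others of the sham group are given as values. Among 174 genes and list sums examined in the 4 sham libraries, 21 had such a library. A chance rate of about 1 in 20 would hold for independent, normally distributed values. The CPM were used untransformed, and list sums contain genes examined beside them, so the count cannot be compared with chance. Of the 21, sham replicate 2 accounted for 10, sham replicate 3 for 6, sham replicate 4 for 3 and sham replicate 1 for 2.

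Sham replicate 2 was far above the other sham libraries for the sterol genes Sqle (26.5 CPM), Cyp51 (115.2 CPM), Hmgcs1 (176.2 CPM) and Insig1 (257.3 CPM) and for the summed cholesterol list (1556 CPM). It was also far above them for Scd1 (365.8 CPM), Elovl6 (180.2 CPM), Gml (4.8 CPM) and the proximal genes Tmprss15 (278.5 CPM) and Pdx1 (7.4 CPM).

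Sham replicate 3 was far above the others for Cd74 (1923 CPM), H2-Aa (926.3 CPM), Ciita (49.1 CPM), the summed MHC class II list (4533 CPM) and Lcn2, where 0.2 CPM against 0.1 CPM is within the rounding of the values. It was the lowest for Cdx2 (115.2 CPM).

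Sham replicate 4 was the highest for Sst (43.5 CPM), for the summed enterocyte markers (91455 CPM) and for the summed integrated stress response list (532.0 CPM). Sham replicate 1 was the lowest for Cyp2b10 (274.1 CPM) and the highest for Per1 (22.5 CPM).

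The lymphocyte chemokine gene Xcl1 had opposite signs in neighbouring segments and was called in neither. In the jejunum it was at 0.3, 0.3 and 0.6 CPM after RYGB against 1.0, 1.4, 1.2 and 2.3 CPM (adjusted p = 0.0529). Values under about 1 CPM are imprecise. In the jejunum all RYGB libraries lay below all sham libraries (log2 fold change -0.80), as they did for 12.5% of all genes. In the duodenum all lay above (0.97). The difference between the segments was not tested.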

How the results depend on the processing

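No DEG described changed its direction under any alternative run. The log2 fold changes of 6 genes that were not called did, Fabp1, Gcg and Cck among them. Of the 169 DEGs described, 86 were called in each of the 15 alternatives that tested them. The number of DEGs in the jejunum was 664 with a minimum of 10 CPM (308 lower), 469 with lane as a covariate (250 higher, 219 lower) and 1773 with array weights (1040 lower). Lane as a covariate is nearly the same fit as leaving out RYGB replicate 2 (461 DEGs), since that library alone was on lane 2. Over the lists, 159 DEGs became 84 with lane as a covariate. With lane, the counts were 4 for cytokines, 7 for epithelial repair, 2 for fatty acid oxidation, 2 for fat uptake, 2 for peptides, 7 for lymphocyte markers, 4 for cytochrome P450 genes and 3 for clock genes. With a minimum of 10 CPM, lymphocyte markers had 4, epithelial repair 9 and clock genes 3, since fewer members were tested. Glycolysis had 10 with array weights, and peptides had 3 with median-ratio scaling. That scaling moved the median of all genes by 0.06 and gave 570 higher and 490 lower genes, so that, as with lane, higher genes outnumbered lower ones (501 and 557 in the comparison reported). For the other changes the cause was not tested.

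Leaving out each library in turn gave 461 to 1013 DEGs, 246 to 514 higher and 215 to 628 lower. The count fell by more than 1.5 times without RYGB replicate 2 (461), sham replicate 3 (586) or sham replicate 1 (626). The ranges were 83 to 135 over all lists, 27 to 29 of the 29 named genes, 6 to 10 for defence, 4 to 11 for cytokines, 7 to 15 for repair, 9 to 18 for cholesterol, 4 to 7 for glycolysis, 2 to 3 for gluconeogenesis, 2 to 5 for fatty acid oxidation, 2 to 8 for fat uptake, 2 to 7 for peptides, 6 to 12 for lymphocyte markers, 4 to 10 for cytochrome P450 genes, 3 to 4 for retinoid genes and 3 to 4 for clock genes.

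With the replicate number as a block 960 genes were DEGs and fatty acid oxidation had 7. Deviations of same-numbered libraries from their group means correlated at -0.27, -7.3e-05 and 0.11, so the numbers were not taken to pair the mice. Depth is unknown and limits genes under about 1 CPM.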

Other observations

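Some lists were not described above. Among genes of oxidative phosphorylation and protein turnover none was called, with limma and Benjamini-Hochberg adjustment, of 74 respiratory chain subunits, 63 cytosolic ribosomal proteins and 37 proteasome subunits. Respiratory chain subunits, which make ATP in mitochondria, had a log2 fold change above 0 in 69 of 74 (median 0.26), and ribosomal proteins in 61 of 63 (median 0.42). Among all genes tested 4938 of 10854 were above 0. The summed level of the respiratory chain subunits overlapped between the groups, at 14320 to 18567 CPM after RYGB and 10602 to 16728 CPM after sham surgery. The summed level of the ribosomal proteins was 633.0 to 1462 CPM in the 7 libraries. Of 18 tested genes of iron handling, the haem-degrading Hmox1 and Hif1a were higher and the haem exporter gene Flvcr1 and the iron-responsive Aco1 lower. These DEGs made up 22.2% of the list, against 9.75% of all genes. Within lane 1 Flvcr1 alone of these remained called. Flvcr1 was at 90.7, 48.7 and 41.3 CPM in the RYGB group and at 185.2, 270.2, 417.7 and 204.2 CPM in the sham group (log2 fold change -2.15 ± 0.33, adjusted p = 0.00411). None of 5 tested calcium and vitamin D genes was called. Of 15 tested tight junction genes Cldn23 alone was called, higher after RYGB (adjusted p = 0.0371, and 0.125 within lane 1), although 13 of 15 had a log2 fold change above 0. This was 6.67% DEGs, against 9.75% of all genes.

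Cd74 was highest in the sham library numbered 3 in each segment, at 804.2 CPM in duodenum, 1923 CPM in jejunum and 2237 CPM in ileum. The labels do not say that libraries of the same number came from the same mouse.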
